A study of Mus musculus with 4 samples.

Results

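The 34 genes described here mark the macrophages of the liver. They were taken by symbol from a panel of known Kupffer cell and macrophage markers, and each was found by its Ensembl identifier among the 46603 genes of the count table. The panel was read in 3 groups: 8 markers of the resident Kupffer cells, 7 markers of recruited and lipid-associated macrophages, and 19 markers that both kinds of macrophage express. The question was whether resident and recruited markers differed between control livers and livers labelled HuR hKO, and whether they differed to the same extent.

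Bulk RNA-seq of whole liver was available for 4 male mice. All of them were HuR flox/flox mice on the C57BL/6 J background, so both groups carried the floxed allele of Elavl1, the gene that encodes the RNA-binding protein HuR, and all received a Western diet with fructose and glucose in the drinking water (WDSW) for 4 weeks. The control group (mice 1 and 2) was given an AAV8 vector with GFP under the thyroxine-binding globulin promoter (AAV8-TBGP-GFP), and the HuR hKO group (mice 3 and 4) the same vector type with Cre recombinase (AAV8-TBGP-Cre) by tail-vein injection. This promoter is active in hepatocytes, so macrophages are not the cells to which the deletion was directed. Age was matched between the groups and is not given in the sources used here. With whole tissue, fewer macrophages and less of a transcript in each macrophage cannot be told apart.

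The libraries held between 13032095 and 19715577 counts, on 17908 to 18911 detected genes. The 34 markers together took 0.0435% to 0.0508% of the counts, or 5739 to 8613 counts in a library. Elavl1 went against the labels: 377 and 347 counts were found in control mice 1 and 2, but 541 and 648 in mice 3 and 4 (log2 fold change 0.41, SE 0.135, unadjusted p = 0.016, adjusted p = 0.545 by the edgeR quasi-likelihood test). Both libraries labelled HuR hKO thus lay above both control libraries. These are counts over the whole gene and not over the deleted exons alone. The groups are named as labelled, and each direction below is that of the labels. Whether the labels were exchanged was not tested, and in that case every direction would turn.

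Kupffer cells line the sinusoids of the liver, where they take up bacteria, dying cells, modified lipoproteins and old red cells from the portal blood. They arise in the embryo and renew themselves in place, under signals from endothelial cells, stellate cells and hepatocytes. When fat accumulates and Kupffer cells are lost, monocytes from the blood enter, and some of them become lipid-associated macrophages that carry the lipid receptor TREM2. The resident and the recruited cells share the receptor for the growth factor CSF1, the complement protein C1q, Fc receptors and lysosomal enzymes.

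The C1q genes and the resident genes Cd5l and Clec4f were among the highest macrophage markers in these livers, while the other 6 resident genes stood lower. Levels are given in CPM, the counts of a gene relative to the size of its library after TMM scaling in edgeR, and for comparison between genes they were divided by the length of all annotated exons in kilobases. By this level per kilobase, C1qa ranked first of the 34 with 37.4 CPM per kb, averaged over the 4 mice. It was followed by Cd5l (28.1 CPM per kb), C1qb (25.5 CPM per kb), Clec4f (25.1 CPM per kb) and Lyz2 (22.4 CPM per kb). The ranges of Cd5l, C1qb and Clec4f over the 4 mice overlapped, so their order is within the spread between mice. At the other end, the recruited markers Cx3cr1 (0.229 CPM per kb), Ccr2 (0.216 CPM per kb), Trem2 (0.105 CPM per kb) and Gpnmb (0.082 CPM per kb) took the last 4 places. The labelled tissue was checked against the resident markers: none of the 8 resident genes was at 0 in a library, and they had 9075 counts in all, against 990 for the 7 recruited genes.

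**Figure D1:**
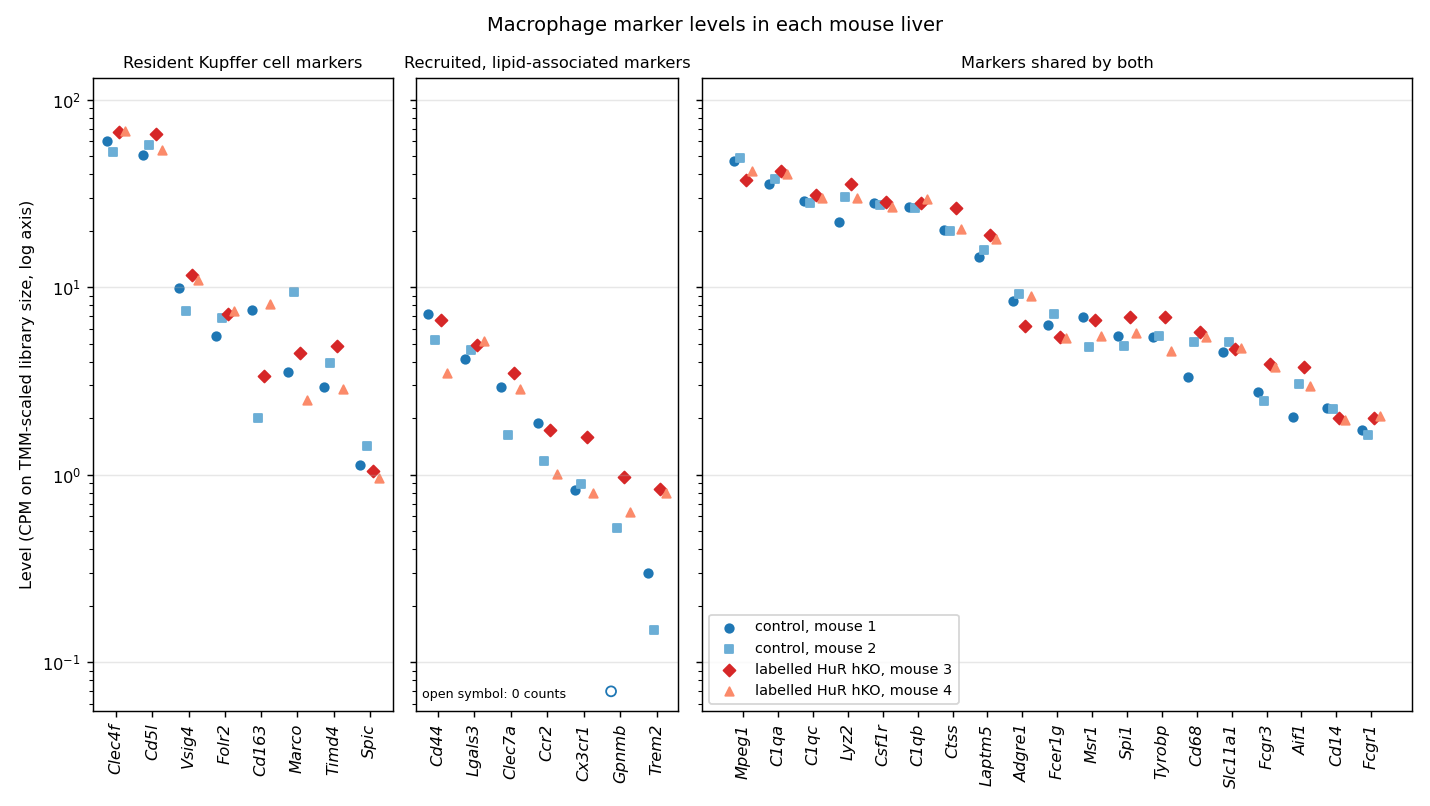
Level of each of the 34 markers in each of the 4 livers, in CPM on a log axis, with 1 symbol per mouse and the genes of each group ordered by mean level. Clec4f and Cd5l lie above 50 CPM in every mouse, Trem2 and Gpnmb lie below 1 CPM, and the groups overlap for 15 of the 33 tested markers. The open symbol is the library of control mouse 1, in which Gpnmb had 0 counts.

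The promoters of 6 markers are shown as examples of the 3 groups: the resident genes with the highest levels, the matched C1q genes, whose transcripts kept close to each other from mouse to mouse, and the lipid-associated genes with the lowest levels. RefSeq sequences (GRCm38.p6, 250 bases before to 50 bases after a start site) were matched for 27 of the 34 markers; Adgre1, C1qa, Cd14, Csf1r, Msr1, Spi1 and Tyrobp were not matched. Each is printed 5′ to 3′ along the gene's strand. Capitals mark the PU box GAGGAA, the core letters bound by the macrophage factor PU.1 (the product of Spi1), and the AP-1 letters TGANTCA, each searched on both strands, so that TTCCTC is a PU box on the opposite strand. No PU box overlapped an AP-1 match. The windows are those of the Kupffer cell lectin Clec4f (chr6:83656067-83656366, minus strand), the secreted scavenger protein gene Cd5l (chr3:87357631-87357930, plus strand), the C1q chains C1qb (chr4:136886151-136886450, minus strand) and C1qc (chr4:136892865-136893164, minus strand), and the lipid-associated markers Trem2 (chr17:48346151-48346450, plus strand) and Gpnmb (chr6:49036268-49036567, plus strand).
Clec4f: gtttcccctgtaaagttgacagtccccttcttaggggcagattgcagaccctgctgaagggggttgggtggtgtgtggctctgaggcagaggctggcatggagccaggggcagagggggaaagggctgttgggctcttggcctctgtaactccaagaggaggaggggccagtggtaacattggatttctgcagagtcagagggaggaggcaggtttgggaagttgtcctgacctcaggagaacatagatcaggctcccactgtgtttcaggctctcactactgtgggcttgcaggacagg
Cd5l: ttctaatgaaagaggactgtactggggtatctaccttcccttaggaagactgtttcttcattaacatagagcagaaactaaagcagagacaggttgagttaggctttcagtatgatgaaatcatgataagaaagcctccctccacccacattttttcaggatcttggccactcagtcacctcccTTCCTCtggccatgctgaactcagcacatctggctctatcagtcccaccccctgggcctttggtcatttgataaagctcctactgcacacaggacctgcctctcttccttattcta
C1qb: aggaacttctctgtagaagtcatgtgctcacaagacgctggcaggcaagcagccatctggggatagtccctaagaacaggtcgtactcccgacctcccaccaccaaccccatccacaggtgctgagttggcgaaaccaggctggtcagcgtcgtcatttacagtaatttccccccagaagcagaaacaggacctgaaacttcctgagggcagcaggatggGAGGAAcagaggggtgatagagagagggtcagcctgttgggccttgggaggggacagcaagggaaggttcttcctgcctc
C1qc: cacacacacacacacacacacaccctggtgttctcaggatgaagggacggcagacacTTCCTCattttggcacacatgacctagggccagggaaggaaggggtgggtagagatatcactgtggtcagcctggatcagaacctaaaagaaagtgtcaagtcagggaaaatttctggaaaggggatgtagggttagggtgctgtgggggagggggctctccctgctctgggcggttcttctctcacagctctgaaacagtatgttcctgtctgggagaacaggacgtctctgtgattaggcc
Trem2: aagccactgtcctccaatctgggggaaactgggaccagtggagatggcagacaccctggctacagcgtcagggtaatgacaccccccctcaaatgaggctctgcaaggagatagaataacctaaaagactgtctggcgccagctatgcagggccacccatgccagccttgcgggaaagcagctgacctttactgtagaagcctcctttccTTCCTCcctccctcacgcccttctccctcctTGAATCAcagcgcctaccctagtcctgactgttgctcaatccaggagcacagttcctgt
Gpnmb: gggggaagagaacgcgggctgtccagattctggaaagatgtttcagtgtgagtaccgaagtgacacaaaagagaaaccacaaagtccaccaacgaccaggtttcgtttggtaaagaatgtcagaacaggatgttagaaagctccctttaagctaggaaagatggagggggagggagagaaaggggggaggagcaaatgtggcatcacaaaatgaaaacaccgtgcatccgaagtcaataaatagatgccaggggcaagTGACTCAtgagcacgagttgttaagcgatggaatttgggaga

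A PU box was present in 15 of the 27 matched markers (55.6%), where 31.3% of 27025 genes with a promoter sequence held it, and 30.1% of the 9774 such genes that were also tested in these livers. By group it was found in 3 of 8 resident, 3 of 7 recruited and 9 of 12 shared markers. Among the printed windows it begins 66 bases before the start site in Cd5l, 30 bases before it in C1qb, 193 bases before it in C1qc and 40 bases before it in Trem2, while the Clec4f window holds neither of these letter strings. The AP-1 letters were present in 4 of the 27 (14.8%, against 8.97% of genes and 6.46% of tested genes), which were Cd68, Folr2, Gpnmb and Trem2. In Trem2 they begin 9 bases before the start site, and in Gpnmb 9 bases after it. The free letter N was A in Trem2 (TGAATCA), C in Gpnmb and Folr2 (TGACTCA) and G in Cd68 (TGAGTCA). The M-box letters CATGTG were present in 7 of the 27 (25.9%, against 15.9% of genes and 10.6% of tested genes), none of them recruited markers. The letters CACGTG (E-box) were present in 0 of the 27, against 8.09% of genes and 11.8% of tested genes. The TATA box letters TATAAA were present in 3 (11.1%), below the 15.7% of all genes but above the 9.23% of tested genes. These counts describe letters in a window and say nothing of binding.

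Between the groups, the macrophage panel as a whole differed little. Of the 34 markers 33 passed the edgeR filter on low counts, and Gpnmb did not; Trem2 passed only through the libraries labelled HuR hKO. By the edgeR quasi-likelihood test with Benjamini-Hochberg adjustment over the 13001 genes tested, 0 of the 33 markers had an adjusted p under 0.05, and their adjusted p ranged from 0.574 to 0.992; over all genes tested, 0.0231% passed. At an unadjusted p under 0.05 the count was 1 of 33 (Trem2), where 7.43% of all genes passed. The same single gene passed a fold change of 1.8 together with that p, where 2.12% of all genes did. By limma-voom 1 marker had an unadjusted p under 0.05 and 0 an adjusted p under 0.05, and by the DESeq2 Wald test the counts were 0 and 0.

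More markers had a higher than a lower fitted level in the libraries labelled HuR hKO, 23 against 10, where 50.3% of all genes tested were higher. Both libraries labelled HuR hKO lay above both control libraries for 14 of the 33 markers, and 19.3% of all genes showed this order. They lay below both control libraries for 4 markers (Spic, Mpeg1, Cd14 and Fcer1g), and 18.8% of all genes showed that order. For the other 15 markers the groups overlapped. The differences were small: the median log2 fold change of the 33 was 0.15, against 0.002 for all genes tested. These counts leaned on mouse 3, which had the highest level of the 4 mice for 18 of the 34 markers, against 6 for mouse 4, 6 for mouse 2 and 4 for mouse 1. The share of all genes that were highest in mouse 3 was not counted, so the 18 cannot be read as particular to the markers. Without mouse 3, 19 of 33 markers had a higher fitted level (46.6% of all genes in that fit), and without mouse 4 it was 26 of 34 (49.3% of all genes).

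**Figure D2:**
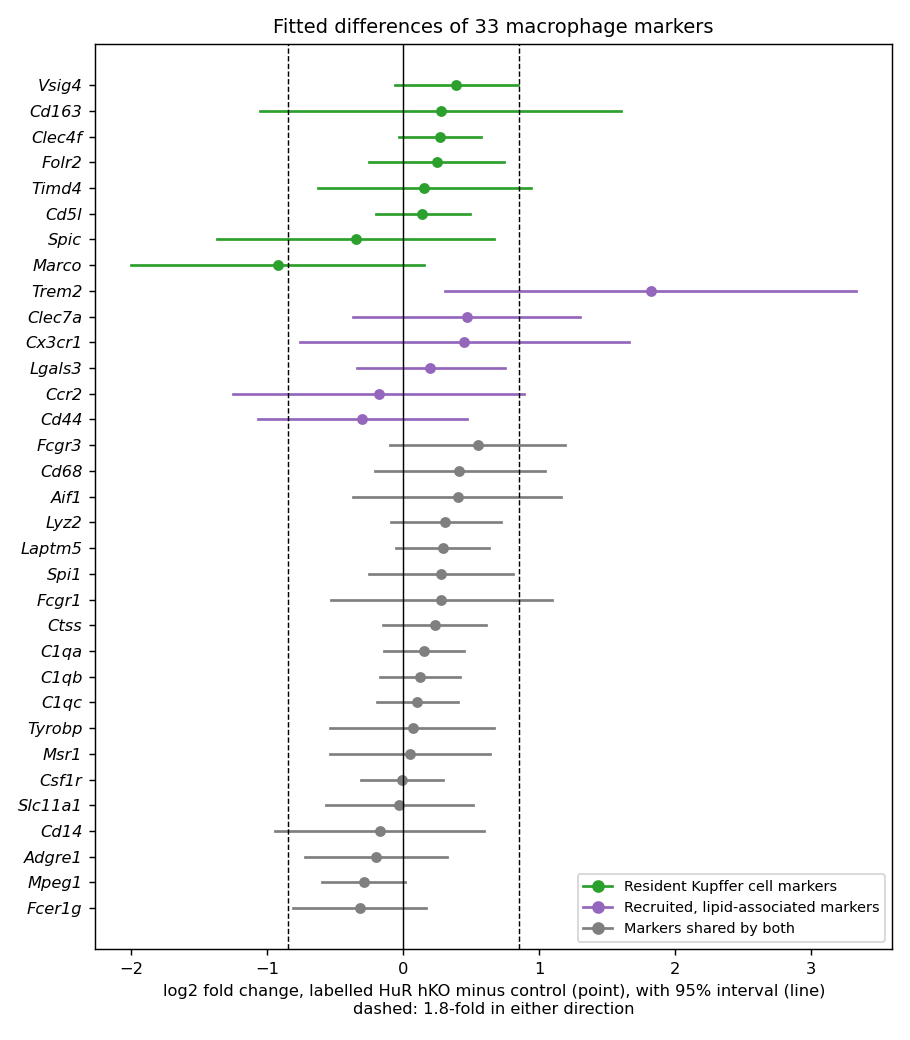
Fitted log2 fold change (libraries labelled HuR hKO minus control) of the 33 markers tested, with 95% intervals as lines and colours for the 3 groups of markers; dashed lines mark a 1.8-fold difference. Trem2 alone has an interval that leaves out 0, and 19 of the 33 intervals lie within the dashed lines.

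For abundant markers the data bounded the difference closely. All 11 markers with a mean level of at least 10 CPM had a 95% interval inside a 1.8-fold difference in either direction, with SEs of the log2 fold change of 0.128 to 0.196. Of all 33, 19 had such an interval. The 22 markers below 10 CPM had SEs of 0.213 to 0.656, the largest of them for Trem2, Cd163 and Cx3cr1.

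Among the resident markers, the most abundant were close between groups, with a slightly higher fitted level in the libraries labelled HuR hKO. Clec4f, a C-type lectin found on mouse Kupffer cells and on almost no other cell, was at 60.0 and 52.5 CPM in the control mice and at 67.3 and 68.0 CPM in mice 3 and 4. The groups did not overlap, but the log2 fold change was only 0.27 (95% interval −0.03 to 0.57, adjusted p = 0.686, edgeR). Cd5l, which encodes a protein that macrophages secrete to protect themselves and to clear debris, was at 50.9 and 57.7 CPM in control and at 66.1 and 54.1 CPM in mice 3 and 4. Its groups overlapped, its log2 fold change was 0.14 (95% interval −0.20 to 0.49, adjusted p = 0.865, edgeR), and this became −0.02 without mouse 3. Vsig4, the complement receptor with which Kupffer cells catch bacteria, was at 9.86 and 7.47 CPM in control and at 11.7 and 11 CPM in the other group, without overlap (log2 fold change 0.39, 95% interval −0.06 to 0.84, adjusted p = 0.696, edgeR). This fold change was 0.59 without control mouse 1 and 0.21 without control mouse 2.

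The less abundant resident markers did not share a direction. Folr2, a folate receptor of tissue-resident macrophages, was at 5.49 and 6.87 CPM in control and at 7.19 and 7.49 CPM in mice 3 and 4, a log2 fold change of 0.25 (SE 0.214) that was 0.08 without control mouse 1 and 0.42 without control mouse 2; its exons share 975 bases with the antisense gene Gm10602, and use of strand in the counting is not given in the sources used here. Timd4, the phosphatidylserine receptor that marks Kupffer cells of embryonic origin, was at 2.94 and 3.96 CPM in control and at 4.88 and 2.87 CPM in mice 3 and 4. Mouse 3 was the highest and mouse 4 the lowest of the 4, so the log2 fold change of 0.15 turned to −0.28 without mouse 3, and to −0.06 without control mouse 1. Spic, a transcription factor of macrophages that recycle heme iron, was low, with 15 and 19 counts in control and 15 and 18 in the other libraries (log2 fold change −0.35, SE 0.443). That fold change was −0.52 without control mouse 1 and −0.17 without control mouse 2. Of these 3 genes only Spic had both libraries labelled HuR hKO below both control libraries.

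Marco and Cd163, both scavenger receptors, differed as much between the mice of a group as between the groups. Marco, which binds bacteria and particles, had 47 and 127 counts in control and 64 and 47 counts in mice 3 and 4. Control mouse 2 stood alone above the other 3 mice. Marco had the lowest log2 fold change of the panel, −0.92 (95% interval −2.0 to 0.15, adjusted p = 0.698, edgeR), and it was −0.04 without control mouse 2 and −1.48 without control mouse 1. In the latter fit it also had the smallest adjusted p of any marker in any setting, 0.134. Without the filter on low counts its unadjusted p was 0.00839 by the same edgeR test.

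Cd163, the receptor for hemoglobin bound to haptoglobin, had 101 and 27 counts in control and 48 and 153 counts in mice 3 and 4. It was high in mice 1 and 4 and low in mice 2 and 3, and the mice of a group differed 3.77-fold in control and 2.43-fold in the other group. The log2 fold change of 0.28 (95% interval −1.05 to 1.60, adjusted p = 0.941, edgeR) moved between −0.52 without mouse 4 and 1.51 without control mouse 1, and it was −0.38 without control mouse 2. The duct keratin Krt19 and the smooth muscle actin Acta2 were also higher in mice 1 and 4 than in mice 2 and 3, but both were highest in mouse 1, while Cd163 was highest in mouse 4. Krt19 had 162 and 5 counts in control and 7 and 34 counts in mice 3 and 4, and Acta2 had 275 and 60, and 66 and 177. Both were chosen for this comparison after their values were seen, and the part of duct and vessel tissue in the Cd163 values was not tested. In control, Marco, Cd163 and Trem2 were at least 2-fold apart between the mice, where 5.65% of all genes tested were, and in the other group Cd163 and Cx3cr1 were, where 4.13% of all genes were.

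**Figure D3:**
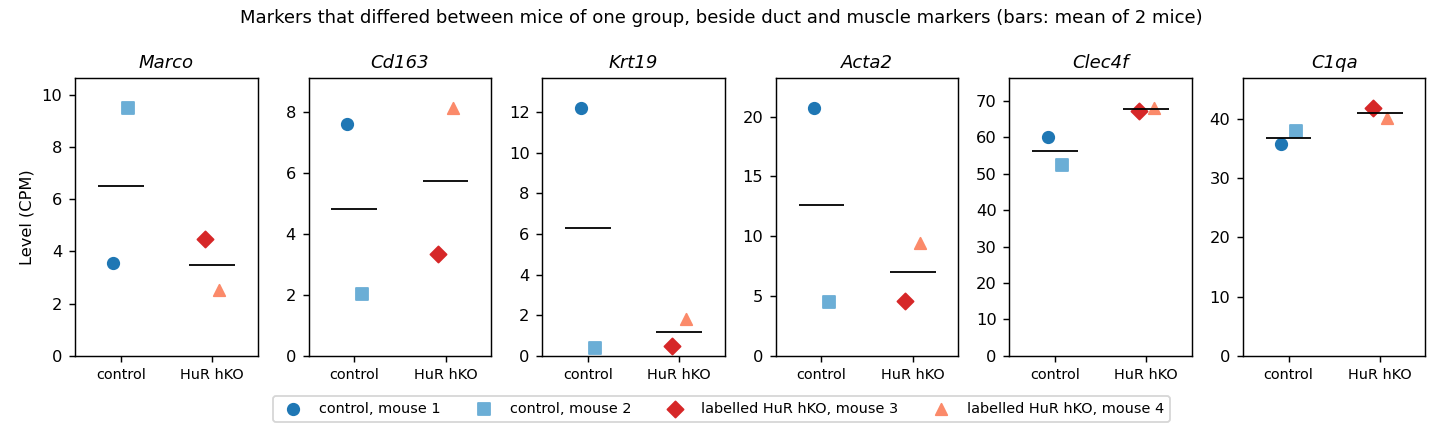
Levels in CPM, by mouse, of the scavenger receptors Marco and Cd163, of the duct marker Krt19 and the smooth muscle marker Acta2, and of Clec4f and C1qa, with bars at the mean of the 2 mice of a group. Marco is high in control mouse 2 alone, Cd163 is high in mice 1 and 4, Krt19 and Acta2 are highest in mouse 1, and Clec4f and C1qa lie close together within each group.

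The recruited markers were low in every liver. Among them, the lipid-associated markers Trem2 and Gpnmb had more counts in both libraries labelled HuR hKO than in both control libraries, at a few counts a library. Trem2, the lipid receptor that marks lipid-associated macrophages, had 4 and 2 counts in control against 12 and 15 in mice 3 and 4, labelled HuR hKO. There was no overlap, and the counts in control are close to the limit of 3 counts that a count of 0 allows (0.152 to 0.230 CPM, counting error only). The log2 fold change was 1.82 (95% interval 0.31 to 3.33, unadjusted p = 0.0238, adjusted p = 0.574, edgeR), and it lay between 1.42 and 2.38 when single mice were left out. From the pooled counts alone, 6 against 27, the ratio after scaling for library size was 3.62, with an exact Clopper-Pearson interval of 1.46 to 10.7 that covers counting error only. The unadjusted p was 0.139 by the DESeq2 Wald test and 0.0295 by limma-voom, and from 0.0504 to 0.166 by edgeR when single mice were left out, so it was above 0.05 whichever of the 4 was left out. Since Trem2 reached the filter only through the libraries where it was high, this p describes those libraries and supports no wider statement.

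Gpnmb, a glycoprotein of lipid-laden macrophages, had 0 and 7 counts in control and 14 and 12 counts in mice 3 and 4, also without overlap. It was not among the genes tested. Fitted without the filter, its log2 fold change was 1.57 (unadjusted p = 0.0858, adjusted p = 0.858, edgeR), and the pooled counts gave a ratio of 2.99 (exact interval 1.26 to 8.15). The fold rested on control mouse 1, where the gene was at 0: without that mouse the log2 fold change was 0.59, and without control mouse 2 the control was at 0 and no fold is given. Lgals3 (galectin-3), which both recruited macrophages and other cells make, was at 4.14 and 4.63 CPM in control and at 4.95 and 5.15 CPM in the other group. It did not overlap either, but its log2 fold change of 0.20 (SE 0.236) was small. For Lgals3 this was 0.11 without control mouse 1 and 0.29 without control mouse 2.

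The markers of monocyte entry and of other leukocyte receptors had small fitted differences with wide errors. Ccr2, the chemokine receptor with which monocytes leave the bone marrow, had 25 and 16 counts in control and 25 and 19 in mice 3 and 4. The log2 fold change was −0.18 (95% interval −1.25 to 0.89) and turned to 0.17 without control mouse 1, to 0.18 without mouse 4, and to 0.10 without scaling for library size, a setting that moves the median of all genes to 0.31. Cx3cr1, the fractalkine receptor, had 11 and 12 counts in control and 23 and 15 in mice 3 and 4. Mouse 3 was highest, and without it the log2 fold change of 0.45 (SE 0.527) became −0.13; 78 bases of its exons are shared with the antisense gene Gm33858. Clec7a (dectin-1), a receptor for fungal glucan, had a log2 fold change of 0.47 (SE 0.364) with overlapping groups, from 39 and 22 counts in control to 50 and 54, and this was 0.93 without control mouse 1 and 0.11 without control mouse 2. Cd44, the hyaluronan receptor of many leukocytes, was at 7.22 and 5.23 CPM in control and at 6.70 and 3.50 CPM in mice 3 and 4, a log2 fold change of −0.30 (SE 0.335) that was 0.11 without mouse 4.

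A wider list of 16 genes of lipid-associated macrophages and lysosomal lipid handling was read beside Trem2 and Gpnmb. All 16 were tested. By edgeR 13 had a higher and 3 a lower fitted level in the libraries labelled HuR hKO, where 50.3% of all genes tested were higher. An unadjusted p under 0.05 was found for 6, each of them higher, where 7.43% of all genes passed in either direction. Of these 6, 4 also passed a fold change of 1.8 (2.12% of all genes). In this fit 0 had an adjusted p under 0.05 (0.0231% of all genes). Without the filter, 161 of 21432 genes passed at the adjusted p. The unadjusted p by edgeR there was 4.08e-08 for Lpl and 1.3e-05 for Mmp12, small enough for both to pass. The median log2 fold change of the list was 0.26. Mmp12, the macrophage elastase, had 3 counts in both control mice but 39 and 28 in mice 3 and 4. The fitted log2 fold change was 3.16 (95% interval 1.78 to 4.54, adjusted p = 0.161, edgeR), and the ratio of pooled counts was 8.98 (exact interval 3.92 to 25.3). Like Trem2, Mmp12 reached the filter only through the libraries where it was high, so its place in these counts is no support for the list.

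Lpl, the lipase that frees fatty acids from lipoproteins and that other liver cells make as well, was at 21.6 and 27.5 CPM in control and at 66.1 and 52.4 CPM in mice 3 and 4 (log2 fold change 1.27, 95% interval 0.86 to 1.67, adjusted p = 0.092, edgeR). Whether Lpl passed depended on the setting. Its unadjusted p was 7.6e-09 by the DESeq2 Wald test, and by edgeR 4.08e-08 without the filter and 2.32e-07 without scaling for library size. In each of these fits that was small enough for an adjusted p under 0.05. By limma-voom, at 7.51e-05, it was not. Cd63, a tetraspanin of late endosomes, had 79 and 61 counts in control against 131 and 190 (log2 fold change 0.87, SE 0.217, adjusted p = 0.362, edgeR). The sixth gene in order of p, the tetraspanin Cd9, had 114 and 86 counts in control against 206 and 169. Atp6v0d2, a proton pump subunit, had 11 and 20 counts in control against 23 and 86, and rested mainly on mouse 4. Spp1 (osteopontin) was at 31.5 and 22.3 CPM in control and at 34.8 and 41.9 CPM in mice 3 and 4, and is a marker of bile duct cells too. When single mice were left out, the log2 fold change by edgeR was 1.08 to 1.46 for Lpl, 0.70 to 1.07 for Cd63 and 2.66 to 3.55 for Mmp12. The other differences depended more on single mice. Cd9 fell to 0.44 without control mouse 2 and to 0.24 without mouse 3. Spp1 fell to 0.29 without control mouse 2 and to 0.37 without mouse 4. Atp6v0d2 fell to 1.06 without control mouse 1 and to 0.46 without mouse 4. By the DESeq2 Wald test the unadjusted p of Cd9 was 0.0717. By limma-voom it was 0.0674 for Cd9 and 0.0662 for Atp6v0d2. Mmp12, Lpl, Cd63 and Spp1 stayed under 0.05 by both tests. For all 6 genes both libraries labelled HuR hKO lay above both control libraries, but they were picked by their p in these same libraries, so this order is no further support. Of the whole list of 16, 9 showed this order and 1 the opposite order, where 19.3% and 18.8% of all genes tested did. Apoe, the most abundant of the 16 genes, is mainly a hepatocyte transcript in liver.

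**Figure D4:**
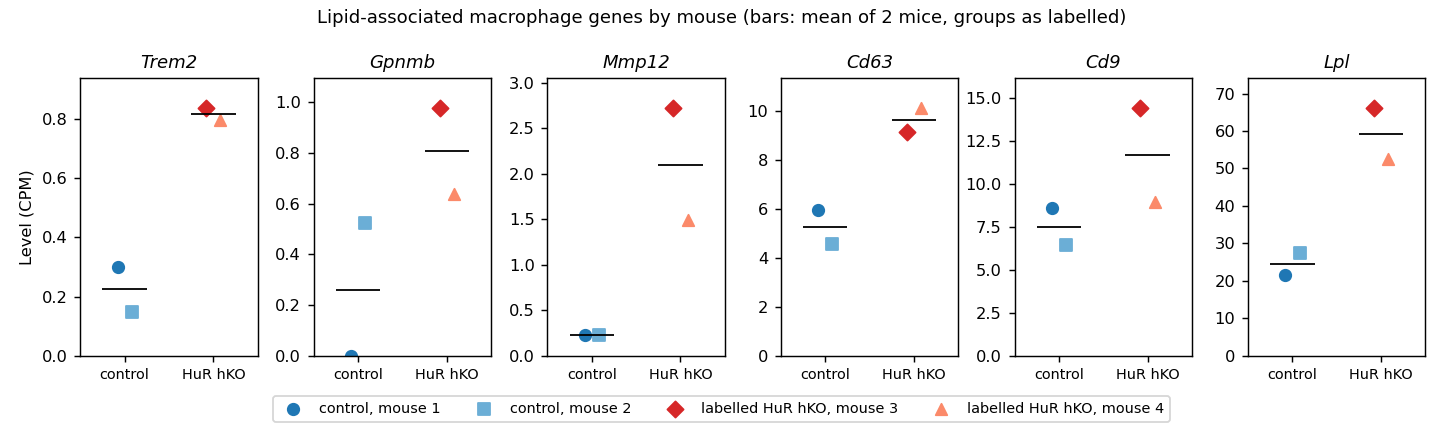
Levels in CPM, by mouse, of Trem2, Gpnmb, Mmp12, Cd63, Cd9 and Lpl, with bars at the mean of the 2 mice of a group and a vertical axis from 0 in each panel. For each of the 6 genes both libraries labelled HuR hKO lie above both control libraries, while Trem2 and Gpnmb stay below 1 CPM. Mmp12, Cd63, Cd9 and Lpl had an unadjusted p under 0.05 by edgeR in these same libraries, so their order is no further support.

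The shared markers held the most precisely measured genes of the panel. Complement C1q is built from equal numbers of A, B and C chains, whose genes lie side by side on chromosome 4, and in liver it is made mostly by Kupffer cells. C1qa was at 35.7 and 37.9 CPM in control and at 41.8 and 40.1 CPM in mice 3 and 4. C1qb was at 26.7 and 26.4 CPM in control and at 28.1 and 29.6 CPM, and C1qc was at 29.0 and 28.1 CPM in control and at 31.1 and 30.1 CPM. None of the 3 overlapped between groups, yet the differences were small, with fold changes of 1.11, 1.09 and 1.07 and log2 fold changes of 0.15 (95% interval −0.14 to 0.45), 0.12 (−0.17 to 0.42) and 0.10 (−0.19 to 0.40). The chains kept their proportions from mouse to mouse, with a C1qa to C1qb count ratio of 1.34, 1.43, 1.49 and 1.35 in mice 1 to 4 and a C1qc to C1qb ratio of 1.08, 1.06, 1.11 and 1.02.

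The receptors and factors that define a macrophage showed no common shift. Csf1r, the receptor for CSF1 on which Kupffer cells depend, was at 28.0 and 27.6 CPM in control and at 28.6 and 26.7 CPM in mice 3 and 4. Its log2 fold change was −0.01 with a 95% interval of −0.31 to 0.29, which leaves out a 1.8-fold difference in either direction; 873 bases of its exons are shared with Hmgxb3 on the opposite strand. Spi1, which encodes PU.1, was at 5.49 and 4.85 CPM in control and at 6.91 and 5.68 CPM in the other group, a log2 fold change of 0.28 (SE 0.230) without overlap. This was 0.12 without mouse 3 and 0.42 without mouse 4. Adgre1, whose product F4/80 is the classical macrophage antigen, was at 8.43 and 9.18 CPM in control and at 6.21 and 9.03 CPM in mice 3 and 4. Its log2 fold change of −0.20 (95% interval −0.72 to 0.32, adjusted p = 0.879, edgeR) rested on mouse 3 and was 0.02 without that mouse; it was 0.14 without scaling, again below the 0.31 of all genes.

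Among lysosomal and secreted products, Cd68 and Lyz2 had positive fitted differences and Mpeg1 a negative one. Cd68, a lysosomal membrane glycoprotein, was at 3.31 and 5.08 CPM in control and at 5.79 and 5.42 CPM in mice 3 and 4 (log2 fold change 0.41, 95% interval −0.21 to 1.04, adjusted p = 0.771, edgeR), but the difference was 0.13 without control mouse 1 and 0.76 without control mouse 2. Lyz2, the macrophage lysozyme, was at 22.4 and 30.2 CPM in control and at 35.6 and 29.9 CPM in the other group, with overlap (0.31, 95% interval −0.09 to 0.72), and the difference was 0.10 without control mouse 1, 0.55 without control mouse 2 and 0.17 without mouse 3. Its near copy Lyz1 had at most 5 counts in a library. Mpeg1, the pore-forming protein perforin-2, was at 47.3 and 49.1 CPM in control and at 37.2 and 41.5 CPM in mice 3 and 4, and so lay below both control mice in both. The log2 fold change was −0.29 (95% interval −0.60 to 0.01, unadjusted p = 0.0556, adjusted p = 0.674, edgeR), from −0.37 to −0.24 when single mice were left out, and each scaled fit gave a lower level. Without scaling it was 0.03, below the 0.31 to which that setting moves the median of all genes. Ctss, the lysosomal protease cathepsin S, was at 20.2 and 19.9 CPM in control and at 26.6 and 20.5 CPM (0.23, SE 0.164, and 0.01 without mouse 3), and Laptm5, a lysosomal protein of blood cells, at 14.5 and 15.8 CPM and at 19 and 18.1 CPM (0.29, SE 0.147). Slc11a1, the metal ion pump of the phagosome, was nearly level (−0.03, SE 0.235).

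The Fc receptor genes and their signalling chains had fitted differences of both signs. Fcgr3, a receptor for IgG complexes, had 37 and 33 counts in control and 56 and 71 counts in mice 3 and 4 (log2 fold change 0.55, 95% interval −0.10 to 1.19, adjusted p = 0.698, edgeR). Fcgr1, the high-affinity IgG receptor, had 23 and 22 counts in control and 29 and 39 in the other group (0.28, SE 0.351). Fcer1g, the chain through which both signal, was at 6.32 and 7.17 CPM in control and at 5.44 and 5.36 CPM, below both control mice (−0.32, 95% interval −0.81 to 0.17). Tyrobp (DAP12), the chain through which TREM2 signals, was at 5.42 and 5.52 CPM in control and at 6.98 and 4.57 CPM in mice 3 and 4, which enclosed the control mice. Its log2 fold change was 0.07 (SE 0.265), and −0.28 without mouse 3, and its difference from that of Trem2 was not tested.

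The remaining shared markers were level within their errors or overlapped. Aif1, the calcium-binding protein Iba1, had 27 and 41 counts in control and 54 and 56 in mice 3 and 4, a log2 fold change of 0.40 (SE 0.331) that was 0.12 without control mouse 1 and 0.72 without control mouse 2. Cd14, the co-receptor for endotoxin, had 30 counts in both control mice and 29 and 37 in mice 3 and 4, whose libraries were deeper, a log2 fold change of −0.17 (SE 0.334) that was 0.14 without scaling, below the 0.31 of all genes. Msr1, the scavenger receptor for modified lipoproteins, had a log2 fold change of 0.05 (SE 0.257), which was −0.19 without control mouse 2 and −0.11 without mouse 3.

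Set against each other, resident and recruited markers stood in a similar proportion in the control livers and in those labelled HuR hKO. The summed level of the 8 resident markers was 141 and 141 CPM in control and 166 and 155 CPM in mice 3 and 4. That of the 7 recruited markers was 17.3 and 14.3 CPM in control and 20.3 and 14.8 CPM, and that of the 19 shared markers was 273 and 286 CPM in control and 302 and 287 CPM. The resident sum was higher in both libraries labelled HuR hKO than in both control libraries, while the recruited sums overlapped. The ratio of the resident to the recruited sum was 8.17 and 9.92 in control (9.05 ± 1.23, SD, n = 2) and 8.18 and 10.5 in mice 3 and 4 (9.34 ± 1.65, SD, n = 2), a difference well within the spread between mice. Since 2 mice were compared with 2, the smallest p that an exact permutation test (two-sided) could reach is 0.333, and no test was made of this ratio.

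The median log2 fold change was 0.20 over the 8 resident, 0.33 over the 6 tested recruited and 0.12 over the 19 shared markers; with Gpnmb, fitted without the filter, the recruited median was 0.44. The resident sum is set by Clec4f and Cd5l, and the recruited sum by Cd44 and Lgals3, so neither sum reads the low lipid-associated genes. Without mouse 3 the medians were 0.12, 0.04 and 0.06. Single genes are not replicates, and no test was made of these medians.

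**Figure D5:**
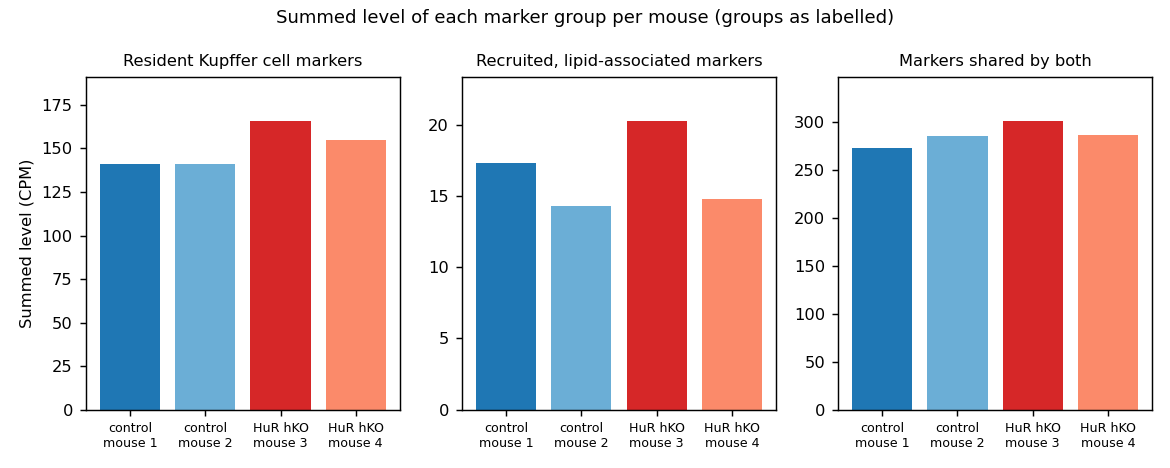
Summed level in CPM of the resident, the recruited and the shared markers in each mouse, as bars from 0, with a separate vertical scale in each panel. The resident sum runs from 141 to 166 CPM, the recruited sum from 14.3 to 20.3 CPM and the shared sum from 273 to 302 CPM, with mouse 3 highest in each.

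Genes that act around these markers were read from further lists. Of 22 genes for macrophage growth factors and identity, 21 were tested, 12 with a higher and 9 with a lower fitted level in mice 3 and 4 (median log2 fold change 0.07). An unadjusted p under 0.05 was found for 2 of them by edgeR, a share near the 7.43% of all genes and so no result about the list. Notch1, a receptor in the programme that turns monocytes into Kupffer cells, was at 14.1 and 14.0 CPM in control and at 20.2 and 18.8 CPM in the other group (log2 fold change 0.47, adjusted p = 0.51). Id3, a factor that Kupffer cells need, was at 28.4 and 38.2 CPM in control and at 27.8 and 20.2 CPM (−0.48, adjusted p = 0.653 by edgeR), with an unadjusted p of 0.269 without control mouse 2 and 0.308 without mouse 4. That of Notch1 was 0.0737 without mouse 3. Of 12 monocyte genes 6 were tested, all 6 with a higher fitted level (median 0.16), where 50.3% of all genes tested were higher. Fitted without the filter, the median over all 12 was 0.09. An unadjusted p under 0.05 by edgeR was found for 0 of the 6. The most abundant gene of that list, Fn1, is also a hepatocyte product.

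Of 20 genes of phagocytosis and scavenging 19 were tested, with 12 higher and 7 lower and a median of 0.11. Only Mertk, the receptor with which macrophages engulf dying cells, had an unadjusted p under 0.05, from 18.7 and 15.1 CPM in control to 25.8 and 20.9 CPM (log2 fold change 0.47, adjusted p = 0.587, edgeR), and this p was 0.133 without control mouse 2 and 0.215 without mouse 3. This 1 of 19 genes is read against the 7.43% of all genes and is no result about the list. Of 12 signalling genes that act below the Fc receptors and TREM2, 11 were tested, with 5 higher and 6 lower, a median of −0.02 and 0 at an unadjusted p under 0.05 by edgeR; Csk, the most abundant, had a log2 fold change of −0.12. By the adjusted p of the edgeR fit with TMM scaling and the filter, 0 genes of these 4 lists passed.

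Markers of other liver cells had fitted differences of both signs, and their counts are read against 50.3% of all genes with a higher fitted level and 7.43% at an unadjusted p under 0.05. All 13 endothelial markers had a higher fitted level in mice 3 and 4, with a median log2 fold change of 0.22, 0 at an unadjusted p under 0.05 by edgeR and summed levels of 312 to 349 CPM in control and 355 to 405 CPM in the other group. Eng (endoglin), the most abundant of them, had a log2 fold change of 0.06. Of 13 stellate cell and fibroblast markers 11 were higher (median 0.19, summed levels 349 to 364 CPM and 370 to 439 CPM), and 2, the collagens Col3a1 (log2 fold change 0.59) and Col1a1 (0.63), had an unadjusted p under 0.05. The 5 erythroid genes tested were all higher (median 0.52, summed levels 363 to 450 CPM and 488 to 711 CPM), 3 of them at an unadjusted p under 0.05. These were the beta globins Hbb-bs (0.84) and Hbb-bt (0.74), near copies of each other, and Alas2 (0.43), the heme synthesis enzyme of red cells. The 11 hepatocyte markers had a median of −0.08, with 4 higher and 7 lower, and Alb (albumin), the most abundant, had 0.04. The 6 bile duct markers tested had a median of −0.36, with 2 higher and 4 lower, down to −2.38 for Krt19, which was highest in control mouse 1. The part of these cells in the higher fitted levels of the macrophage markers was not tested.

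Other leukocytes were sparse. The 13 neutrophil markers had a summed level of 2.56 and 3.96 CPM in control and 2.93 and 1.96 CPM in mice 3 and 4. Of them 7 had at most 3 counts in every library, among them Ly6g and Camp at 0, and only Csf3r passed the filter (log2 fold change −0.71, SE 0.425). S100a8 had 1 and 1 counts in control and 3 and 5 in mice 3 and 4, and S100a9 had 4 and 5, and 10 and 3. The 15 T and NK cell markers summed to 7 to 10.3 CPM, with Thy1 the most abundant (log2 fold change −0.01), and the 8 dendritic cell markers to 8.60 to 13.8 CPM, with Zbtb46 the most abundant (−0.37). B cell markers varied most between mice, with sums of 6.17, 43.2, 23.6 and 34.6 CPM in mice 1 to 4, and their most abundant gene Ighm had 33, 340, 187 and 310 counts. The 8 bile duct markers summed to 67.3, 44.1, 52.7 and 63.4 CPM, but without Spp1, which macrophages also make, the other 7 summed to 35.7, 21.8, 17.9 and 21.6 CPM, highest in mouse 1 alone.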

How the data were processed

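Total liver RNA was sequenced from 2 control mice and 2 mice labelled HuR hKO. The authors deposited counts of reads on 46603 Ensembl genes without normalization, as whole numbers, 1 column per mouse; 0 columns were left unmatched. The submitters' processing notes name GRCm38 and RSEM without a role, so the counts may be rounded estimates. Symbols were found for 46005 identifiers. Coordinates and exon lengths are those of GENCODE M21 on GRCm38.

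Counts were scaled with TMM factors (0.957 to 1.04) and tested with glmQLFit and glmQLFTest of edgeR 4.0.16 (R 4.3.3), two-sided, after filterByExpr (minimum count 10, minimum total 15), with Benjamini-Hochberg adjustment over 13001 genes. Intervals are 95%. Every pair of libraries differed beyond sampling noise (chi-square per degree of freedom 21.2 to 32.7). The mice are separate animals. Alternatives were other scalings and filters, DESeq2 1.42.0, limma-voom (limma 3.58.1) and leaving out each mouse. Tables and figures were made with python 3.11.15, pandas 2.3.3, numpy 2.4.6, scipy 1.17.1 and matplotlib 3.10.9, and the tests were tried on simulated counts. The 34 markers and the further lists were chosen with earlier results of these data known. All 34 markers are named; of each other list, the genes with an unadjusted p under 0.05 (up to 5) or else the most abundant gene are named. Genes outside this rule, such as Krt19, Acta2 and Cd9, were named after their values were seen. Of the listed genes 1, the hepatocyte marker Tf, had no row.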

Additional observations from a re-analysis of the deposited data

How the results depend on the processing

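At an adjusted p under 0.05 the count of markers was 0 in each of the 11 alternatives, and the number with a higher fitted level stayed within 1.5 times of 23. Without scaling for library size, where the median log2 fold change of all genes was 0.31, 7 markers had an unadjusted p under 0.05 (10.7% of all genes), 2 of them with a fold change of 1.8, 23 had both libraries labelled HuR hKO above (44.8% of all genes) and 0 below (2.37%) both control libraries, and the resident, recruited and shared medians were 0.50, 0.62 and 0.44. In that setting Ccr2 (0.10), Adgre1 (0.14), Csf1r (0.30), Mpeg1 (0.03), Cd14 (0.14) and Slc11a1 (0.28) changed sign. Without the filter 2 markers passed at an unadjusted p under 0.05 and 2 at the fold as well (Trem2 and Marco), and the resident minus recruited median was −0.25. With at least 10 counts in every library 1 marker, Mpeg1 (log2 fold change −0.30), had an unadjusted p under 0.05 by edgeR, where 7.82% of all genes did. At the fold 0 passed there, since Trem2 was removed, and the resident minus recruited median was −0.0047. By DESeq2 the counts were 0 and 0 and that median −0.26.

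With each mouse left out in turn, when the lone mouse of a group is assumed to vary like the other group, 0 to 3 markers had an unadjusted p under 0.05 (4.18% to 10.7% of all genes) and 0 to 2 passed the fold as well. With only 1 library left in a group, an order without overlap is easier to reach: it was found above control for 15 to 23 markers and below for 5 to 11, and over all genes for 32.8% to 36.7% and 32% to 36.9%. The medians ran from 0.06 to 0.24 (resident), 0.04 to 0.61 (recruited), 0.06 to 0.20 (shared) and −0.37 to 0.07 (resident minus recruited). The log2 fold change changed sign without control mouse 1 or mouse 3 for Timd4 (range −0.28 to 0.50), without control mouse 1 or mouse 4 for Ccr2 (−0.62 to 0.18), without control mouse 2 or mouse 4 for Cd163 (−0.52 to 1.51) and without control mouse 2 or mouse 3 for Msr1 (−0.19 to 0.33). It did so without control mouse 2 for Slc11a1 (−0.12 to 0.06), without mouse 3 for Cd5l (−0.02 to 0.28), Cx3cr1 (−0.13 to 0.89), Adgre1 (−0.50 to 0.02) and Tyrobp (−0.28 to 0.35), and without mouse 4 for Cd44 (−0.84 to 0.11) and Csf1r (−0.08 to 0.04). The cause was not tested. Of the markers tested, 11 changed sign in a setting that scales for library size; Mpeg1 and Cd14 did so only without scaling, which raises all genes. No paired analysis was possible because the mouse numbers 1 to 4 are not shared between the groups. With 2 mice a group, markers of a few counts, such as Trem2, Gpnmb, Ccr2 and Cx3cr1, are limited by depth.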
